A study of Homo sapiens with 10 samples.

Results

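KLHDC7B, P2RX1, GTPBP2 and MSS51 are 4 of the 32738 genes counted in HepG2 cells with and without tunicamycin. They were chosen by their values in this very comparison, as genes with the largest inductions that had few or no counts in untreated cells and have no classical role in the unfolded protein response. Their levels and fold changes are therefore given as a description, without a test. HepG2 is a human hepatoma line. Tunicamycin, which blocks the first step of N-linked glycosylation and so causes misfolding of glycoproteins in the endoplasmic reticulum (ER), was added to the growth medium at 2 µg/ml, and the cells labelled Control received regular medium, both for 17 h. Each condition had 5 libraries, from replicate experiments performed on separate days. Libraries were made from 3′ ends of mRNA with QuantSeq, and the values are raw numbers of reads per gene.

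The unfolded protein response starts from sensors in the ER membrane and raises the transcription of chaperones, of components of ER-associated degradation and, through ATF4, of the integrated stress response genes. The 4 genes encode proteins of other kinds. KLHDC7B is a protein with kelch repeats, a fold that binds other proteins and that serves some of its relatives as the substrate-binding part of ubiquitin ligases. P2RX1 is a cation channel of the cell surface that is opened by extracellular ATP and is best known from platelets and smooth muscle. GTPBP2 is a GTP-binding protein related to translational GTPases, with a role in the rescue of stalled ribosomes. MSS51 carries a MYND zinc finger and is known from the mitochondria of skeletal muscle, and its yeast namesake activates translation of a subunit of cytochrome c oxidase (complex IV).

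The genes lie on separate chromosomes. On build GRCh38, in the GENCODE gene models that carry the same Ensembl identifiers, KLHDC7B (ENSG00000130487) is a gene of 1 exon on the plus strand of chromosome 22, from 50545899 to 50551023. P2RX1 (ENSG00000108405) has 12 exons on the minus strand of chromosome 17, from 3896592 to 3916476. GTPBP2 (ENSG00000172432) lies on the minus strand of chromosome 6, from 43605316 to 43629264, with 12 exons in its reference transcript. MSS51 (ENSG00000166343) has 7 exons on the minus strand of chromosome 10, from 73423579 to 73433561. The sequences before the start sites are shown because the DNA letters recognised by stress-activated transcription factors can be looked for in them. A shared rise of the 4 genes is no reason for this search, since they were chosen for it. RefSeq on build GRCh38.p14 supplied promoters for 3 of the 4 genes, and P2RX1 is named only. The 250 bases upstream of the start are given 5′ to 3′ on the strand of the gene, in lower case, with matches to the motifs listed below in capitals. They are chr22:50545649-50545898 on the plus strand for KLHDC7B, chr6:43629265-43629514 on the minus strand for the first of 2 starts of GTPBP2, and chr10:73433562-73433811 on the minus strand for MSS51.
KLHDC7B: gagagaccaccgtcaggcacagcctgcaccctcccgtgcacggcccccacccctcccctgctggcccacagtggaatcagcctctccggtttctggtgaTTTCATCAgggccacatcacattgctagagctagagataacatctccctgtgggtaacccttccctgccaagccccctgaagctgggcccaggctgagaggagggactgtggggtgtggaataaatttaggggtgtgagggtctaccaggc
GTPBP2: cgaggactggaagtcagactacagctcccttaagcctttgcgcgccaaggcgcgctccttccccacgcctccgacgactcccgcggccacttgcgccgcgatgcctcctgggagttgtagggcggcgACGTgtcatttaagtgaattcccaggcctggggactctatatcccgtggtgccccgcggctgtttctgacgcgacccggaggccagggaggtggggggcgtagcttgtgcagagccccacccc
MSS51: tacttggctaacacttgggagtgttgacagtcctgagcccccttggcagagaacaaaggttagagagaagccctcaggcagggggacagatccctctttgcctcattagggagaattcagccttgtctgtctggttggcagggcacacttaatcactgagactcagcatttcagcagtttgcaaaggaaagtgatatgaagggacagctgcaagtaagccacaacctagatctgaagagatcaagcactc

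Each promoter was searched on both strands from 250 bases before to 50 bases after the start, in all 34943 RefSeq promoters of that length. The KLHDC7B promoter held 1 match to the C/EBP-ATF response element TGATGNAA, read as TGATGAAA on the minus strand. On the strand of the gene it reads TTTCATCA, with the first base of these letters 151 bases upstream of the start. Of all promoters, 3.62% held this motif. The GTPBP2 promoter held 1 ACGT, the core of many bZIP sites, at 123 bases upstream, and 33.3% of all promoters held an ACGT. The promoter at the second start of GTPBP2 and the MSS51 promoter held none of the motifs. No promoter of the 3 genes held an AP-1 site (TGACTCA or TGAGTCA, in 4.96% of all promoters), a CRE (TGACGTCA, 1.84%), a C/EBP palindrome (TTGCGCAA, 0.152%) or a UPR element (TGACGTGG, 0.73%). They also lacked both forms of the ER stress response element, CCAAT followed after 9 bases by CCACG, in 0.0773% of all promoters, and ATTGG followed after 1 base by CCACG, in 0.0544%. CRE and UPR element both contain ACGT. These matches describe letters in a window and not bound sites.

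Untreated libraries held 4242538 to 4888292 counts each. Tunicamycin libraries held 2234682 to 5029864, the fewest in replicate 5. Of the 32738 genes, 12733 passed the filter on low counts, and all 4 genes were among them. KLHDC7B, P2RX1 and MSS51 passed only through their counts in the tunicamycin libraries. With edgeR's quasi-likelihood test at an adjusted p under 0.05, 17.6% of tested genes were higher and 16.6% lower with tunicamycin, 34.2% in either direction. Of the genes that differed, 51.4% were higher after TMM scaling and 40.8% with library size alone. The label of the cell line was checked against hepatocyte markers. All 10 passed the filter, with ALB at 11214 normalised counts in untreated and 11519 in tunicamycin cells, and 6 of the 10 were lower with tunicamycin. Classical ER stress genes are given for scale. All 16 tested ER chaperone and degradation genes were higher, with a median log2 fold change of 2.31, and of 24 tested integrated stress response genes 16 were higher and 0 lower by edgeR, with a median of 0.92. In that list 1 gene, the amino acid transporter SLC7A5, was lower at an unadjusted p under 0.05, and both DESeq2 and the fit with the replicate block called it. The chaperone HSPA5 had a log2 fold change of 2.97, DDIT3 of 1.42, ASNS of 1.23 and TRIB3 of 0.80. CHAC1 had 0 counts in all 10 libraries. In such bulk libraries a change in RNA per cell and a change in the number of cells that express a gene cannot be told apart.

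In untreated cells KLHDC7B, P2RX1 and MSS51 were near the limit of what this depth can count, and GTPBP2 was above it. KLHDC7B had 1, 3, 3, 3 and 0 reads in untreated replicates 1 to 5, and P2RX1 had 1, 2, 5, 3 and 0. MSS51 had 5, 4, 6, 5 and 1 reads. GTPBP2 was the best covered of them, with 4, 6, 10, 33 and 22 reads. Ranked by mean normalised count, which is the count scaled to a common library size by TMM, untreated KLHDC7B was at percentile 1.15 of the 12733 tested genes, P2RX1 at 1.6, MSS51 at 5.88 and GTPBP2 at 19.7. With tunicamycin they moved to percentiles 71.1, 53.5, 78.8 and 79.1, all above the middle of the tested genes. QuantSeq gives about 1 read per transcript, so that levels are compared between genes without division by length.

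**Figure D1:**
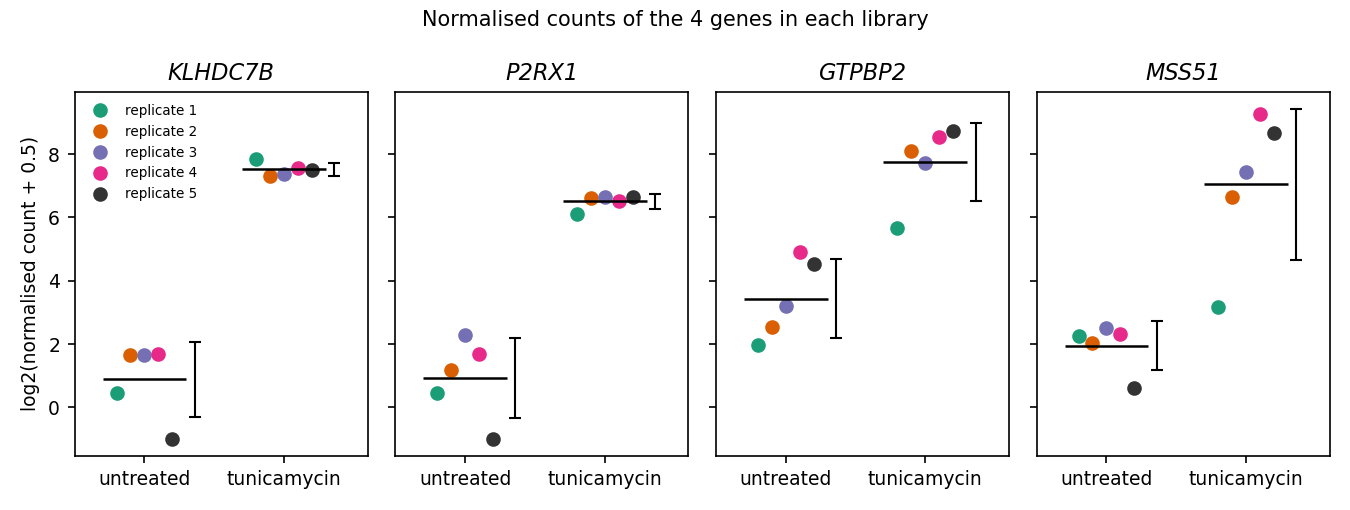
Each panel is 1 gene, with log2(normalised count + 0.5) on the vertical axis and the 5 untreated and 5 tunicamycin libraries as points coloured by replicate number; the line is the mean and the bar the SD of the log2 values. In every panel all tunicamycin points lie above all untreated points, with KLHDC7B and P2RX1 close together under tunicamycin and MSS51 spread from 8.45 to 619.6 normalised counts.

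For KLHDC7B the tunicamycin libraries held 274, 160, 174, 136 and 90 reads, which is 231, 159, 164, 187 and 182 normalised counts. Every library of the treated cells was thus within 1.46-fold of every other one, and all were far above the untreated range of 0 to 2.69. The mean went from 1.77 ± 1.26 to 185 ± 28.6 normalised counts (SD, n = 5 per condition). The log2 fold change was 6.58 with a standard error of 0.27. Summed over the libraries there were 10 reads in untreated and 834 in treated cells, a ratio of 103 per unit depth with an exact 95% interval of 55.7 to 216, which covers counting error only. In replicate 5, where the untreated library had 0 reads, the fold was at least 59.6, taken against a floor of 3 counts in that library, and 47.4 was the exact 95% lower limit of that ratio when counting error of both libraries is included.

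P2RX1 was as even as KLHDC7B at a lower level. Its tunicamycin libraries held 81, 98, 106, 66 and 49 reads, or 68.4, 97.2, 100.1, 90.7 and 98.9 normalised counts. The lowest of them, replicate 1, was still well above the untreated maximum of 4.37. The mean went from 1.94 ± 1.69 to 91.1 ± 13.2 normalised counts (SD, n = 5), with a log2 fold change of 5.42 and a standard error of 0.32. The read sums were 11 and 400, a ratio of 44.9 with a counting interval of 24.8 to 90.7. In replicate 5 the fold was at least 32.4 against the same floor, with an exact 95% lower limit of 25.4.

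GTPBP2 had the highest untreated level and the smallest fold of the 4 genes. With tunicamycin it had 60, 277, 221, 270 and 211 reads, or 50.7, 275, 209, 371 and 426 normalised counts. Replicate 1 stood low and replicates 4 and 5 high, with 8.4-fold between the extremes. Untreated libraries were also uneven, at 3.44, 5.35, 8.75, 29.6 and 22.4 normalised counts, again lowest in replicate 1 and highest in replicates 4 and 5, and the highest untreated value remained below the lowest treated one. The mean went from 13.9 ± 11.5 to 266 ± 147 (SD, n = 5), a log2 fold change of 4.23 with a standard error of 0.50. The read sums of 75 and 1039 gave a ratio of 17.1 with a counting interval of 13.5 to 21.9.

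MSS51 varied most. Its tunicamycin libraries held 10, 101, 183, 451 and 201 reads, or 8.45, 100.2, 173, 619.6 and 406 normalised counts. Replicate 4 was 73.4-fold above replicate 1, and replicate 1 was the only treated library near the untreated range of 1.02 to 5.25. The mean went from 3.72 ± 1.63 to 261 ± 248 normalised counts (SD, n = 5), with a log2 fold change of 6.0 and a standard error of 0.85. The read sums were 21 and 946, a ratio of 55.6 with a counting interval of 36.2 to 90.3. A single library weighed on this value. Without tunicamycin replicate 4 the treated mean was 172 ± 170 (SD, n = 4) and the log2 fold change 5.36, and without tunicamycin replicate 1 the log2 fold change was 6.34 with a standard error of 0.51.

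Ordered by treated level, the means of GTPBP2 (266), MSS51 (261) and KLHDC7B (185) differed by less than the SD of either GTPBP2 or MSS51, and the highest P2RX1 library (100.1) was below the lowest KLHDC7B library (159). In all 4 genes every tunicamycin library was above every untreated library. The same held for 1484 of the 12733 tested genes, or 11.7%, and nothing can be read from the members' count because this comparison chose them. Ranked by log2 fold change among 2391 genes with at least 20 normalised counts on average and a higher value in all 5 replicates, KLHDC7B was first, MSS51 second, P2RX1 at rank 4 and GTPBP2 at rank 5. LCN2, a secreted protein that binds bacterial iron carriers, was at rank 3 with a log2 fold change of 5.57, and IGFBP1, a liver-secreted binding protein of insulin-like growth factors, followed at rank 6 with 4.09. Neither is among the chosen genes. Over all 12733 tested genes, without these conditions, KLHDC7B was at rank 2, MSS51 at 3, P2RX1 at 7 and GTPBP2 at 11. Ranks 7 to 10 among the 2391 genes were taken by F2RL1 (3.94), DNAJB9 (3.76), MEI1 (3.75) and CCL20 (3.47).

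Because the replicate experiments were run on separate days, the change was also taken within each replicate number, as the log2 ratio of normalised counts with 0.5 added. KLHDC7B gave 7.41, 5.65, 5.72, 5.88 and 8.51 for replicates 1 to 5. P2RX1 gave 5.66, 5.42, 4.37, 4.84 and 7.63. For both, the highest ratio fell in replicate 5, in which the untreated library had 0 reads, so that the size of this ratio depends on the added 0.5. GTPBP2 gave 3.70, 5.56, 4.50, 3.63 and 4.22, a narrower range than its levels, since low and high libraries of the 2 conditions shared replicate numbers. MSS51 gave 0.90, 4.63, 4.91, 6.96 and 8.06. In its replicate 1 the step was from 5 to 10 reads, a ratio of 1.96 per unit depth with an exact 95% counting interval of 0.611 to 7.32, so that no increase was detectable at this depth in that replicate. With the replicate number as a block in the fit, the log2 fold changes were 6.58, 5.43, 4.29 and 5.90 for KLHDC7B, P2RX1, GTPBP2 and MSS51. The standard error of that fit was 0.19 for GTPBP2 and 0.36 for MSS51 and hardly moved for KLHDC7B and P2RX1, at 0.26 and 0.31. It comes from the model and does not measure the spread of the ratios above. Over the 5 replicate numbers these ratios had an SD of 1.27 for KLHDC7B, 1.25 for P2RX1, 0.78 for GTPBP2 and 2.75 for MSS51.

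**Figure D2:**
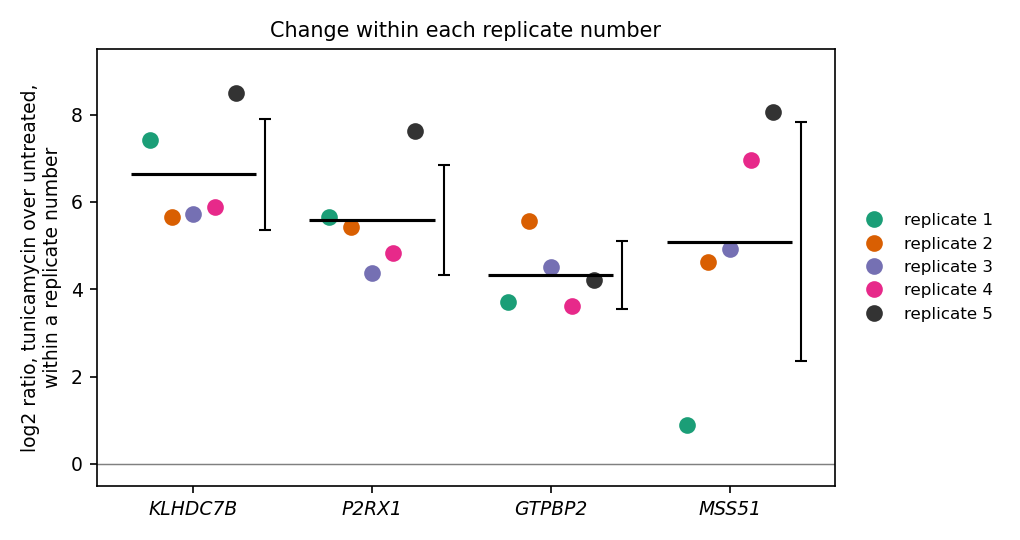
The log2 ratio of tunicamycin over untreated within each replicate number is on the vertical axis for the 4 genes, with a point for each replicate, a line at the mean and a bar for the SD. All points are above 0, and the MSS51 points run from 0.90 in replicate 1 to 8.06 in replicate 5.

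The spread among the treated libraries was small for KLHDC7B and P2RX1 and large for GTPBP2 and MSS51. On the log2 scale the SD over the 5 tunicamycin libraries was 0.213 for KLHDC7B and 0.228 for P2RX1, at percentiles 49.8 and 54.6 of 9707 genes with at least 20 normalised counts on average. It was 1.23 for GTPBP2 and 2.40 for MSS51, at percentiles 99.8 and 99.9. The course over the 10 libraries was compared by the root mean square difference of centred log2 levels. Centring was on the mean over all 10 libraries, so that the difference includes the step between conditions, by which the 4 genes were chosen. A small difference is thus in part a similar fold change and is given as a description. Among the 4 genes, KLHDC7B and P2RX1 were close (0.643), whereas GTPBP2 and MSS51 differed by 1.41, hardly less than P2RX1 from MSS51 (1.48) or from GTPBP2 (1.5), and KLHDC7B differed from them by 1.82 and 1.87. The 3 most similar genes were then listed for each. For KLHDC7B these were P2RX1 (0.643), LCN2 (1.16) and IGFBP1 (1.48), and for P2RX1 they were KLHDC7B (0.643), IGFBP1 (1.08) and LCN2 (1.15). For GTPBP2 they were the ER co-chaperone DNAJB9 (0.664), the protease-activated receptor F2RL1 (0.854) and the phosphatase subunit PPP4C (0.924). For MSS51 they were the chemokine CCL20 (1.21), F2RL1 (1.26) and GTPBP2 (1.41), which are more distant matches.

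The genes nearest to GTPBP2 and MSS51 were chosen by likeness over these same libraries, so that their low values in tunicamycin replicate 1 restate that choice. CCL20 had 22.0 normalised counts there against 114 to 219.8 in the other treated libraries, F2RL1 25.3 against 71.8 to 145, PPP4C 7.60 against 32.1 to 135, and DNAJB9 106 against 167 to 230.02. HSPA5 and DDIT3 were not low in that library. HSPA5 had 72113 normalised counts in it, the highest of the 5, and DDIT3 had 446 in a range of 346 to 493. IGFBP1 had 2566, also the highest. A count added after the values were seen found 7 of 9707 genes that were at least 4-fold below all other treated libraries in tunicamycin replicate 1. They were CCL20, GTPBP2, SGCE, MSS51, TMEM216, NPIPA1 and PPP4C. In the other treated libraries this number was 0, except for 3 genes in replicate 5, and in untreated replicate 1 it was 9 genes. Tunicamycin replicate 1 was also the deepest library, with 5029864 counts, and had the lowest mitochondrial share, 18.3%, against 21.3% to 28.8% in the other treated libraries. Replicates 4 and 5, in which GTPBP2 and MSS51 were highest, were the shallowest and had the largest mitochondrial shares, 28.8% and 24.6%. The part of these differences in the spread of GTPBP2 and MSS51 was not tested.

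**Figure D3:**
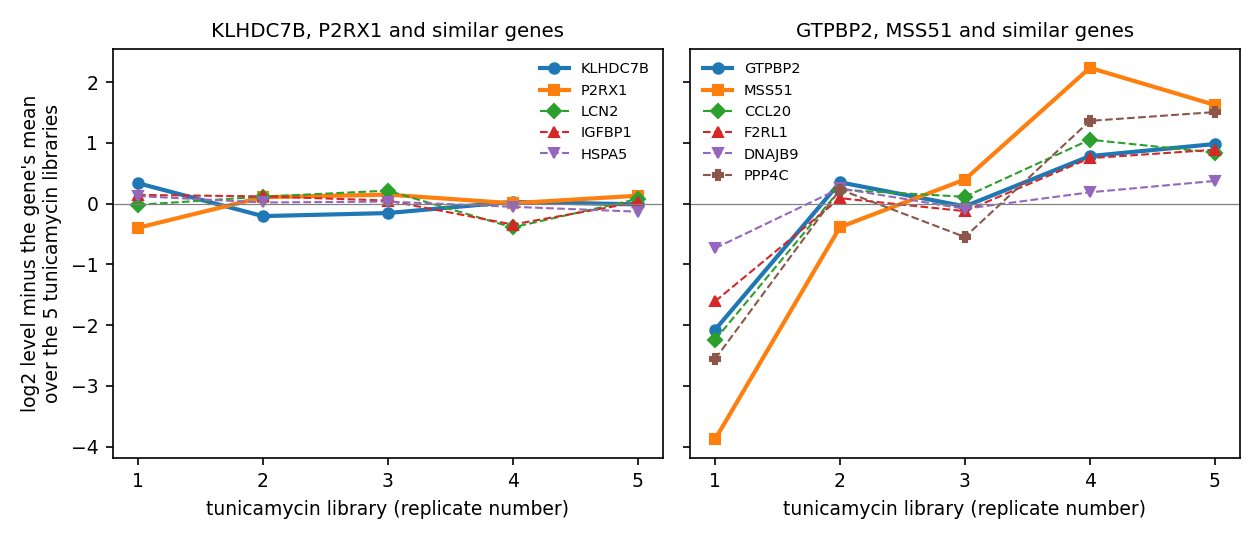
The log2 level of each gene minus its mean over the 5 tunicamycin libraries is plotted against the replicate number, with KLHDC7B, P2RX1, LCN2, IGFBP1 and HSPA5 at the left and GTPBP2, MSS51, CCL20, F2RL1, DNAJB9 and PPP4C at the right; lines only join the values of a gene, since replicate numbers have no order. The left genes stay near 0, whereas all genes at the right are lowest in replicate 1.

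Genes related to the 4 were counted next, from lists of paralogs and of partners in the same process. The 8 lists held 112 entries, of which 92 were tested. By edgeR's quasi-likelihood test with adjustment over all tested genes, 13 were higher, 15 were lower and 64 did not pass, with a median log2 fold change of 0.02, where the median of all tested genes was -0.0033. The shares higher and lower, 14.1% and 16.3%, were near the 17.6% and 16.6% of all tested genes. With library size alone the balance shifted to 9 higher and 19 lower, as it shifted over all genes. Of the 28 calls, 15 held in all 17 alternative fits.

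Among the relatives of KLHDC7B, 0 of 7 tested KLHDC genes were higher by edgeR, and 0 also at an unadjusted p under 0.05 and by DESeq2. Over all tested genes 17.6% were higher and 16.6% lower by edgeR, and 7 genes are too few to compare with these shares. KLHDC2, a substrate receptor for C-terminal degradation signals, was lower, from 218 ± 44.4 to 153 ± 16.8 normalised counts (SD, n = 5 per condition), with a log2 fold change of -0.51 and an edgeR adjusted p of 0.0062. KLHDC4 fell from 38.7 to 22.2 normalised counts (log2 fold change -0.78, edgeR adjusted p = 0.0297), a call that was lost without untreated replicate 1 or 3 or without tunicamycin replicate 2, 4 or 5, with adjusted p up to 0.111. KLHDC7A, the closest paralog, had 10.2 and 6.8 normalised counts and did not pass (edgeR adjusted p = 0.21). Of 13 tested interferon-stimulated genes 1 was higher (MX2) and 2 were lower (OAS3 and IFI6), or 7.7% and 15.4%. Their median log2 fold change was -0.34.

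The other ATP-gated channels had few or no reads. P2RX2, P2RX3, P2RX6 and P2RX7 had 0 reads in all 10 libraries. P2RX4 had 15.9 ± 5.64 normalised counts in untreated and 22.1 ± 5.27 in tunicamycin cells (SD, n = 5; edgeR adjusted p = 0.25), and P2RX5 had 8.16 ± 4.67 and 11.2 ± 3.38 (edgeR adjusted p = 0.46). Both ranges overlapped between conditions, and neither gene passed at an unadjusted p under 0.05 or by DESeq2. Of 4 tested G-protein-coupled P2Y receptors 0 were higher, by edgeR, at an unadjusted p under 0.05 and by DESeq2, and P2RY8 was lower, from 32.1 ± 7.49 to 12.8 ± 10.2 normalised counts (log2 fold change -1.45, edgeR adjusted p = 0.0068). The 4 P2Y receptors are too few to compare with the shares of all tested genes, 17.6% higher and 16.6% lower. Of 13 tested genes for ATP release and extracellular nucleotide breakdown, 2 were higher and 3 lower, or 15.4% and 23.1%. The median log2 fold change of these 13 genes was -0.13. SLC17A9, which loads ATP into secretory vesicles, was higher, from 1182 ± 136 to 1833 ± 65.6 normalised counts (log2 fold change 0.63, edgeR adjusted p = 2.3e-05), with no overlap between conditions. NT5E, which turns extracellular AMP into adenosine, was higher by a log2 fold change of 0.49 (edgeR adjusted p = 0.0326). The NT5E call was lost with library size alone and without untreated replicate 1 or 2 or tunicamycin replicate 2, 4 or 5, with adjusted p up to 0.0808. ENPP2 was lower (log2 fold change -1.16, edgeR adjusted p = 0.0253) on means of 15.0 and 6.41 normalised counts, and its call was lost after thinning and without untreated replicate 2 or 3 or tunicamycin replicate 3 or 5, with adjusted p up to 0.291. The other genes lower, ENTPD5 and ENTPD6, had log2 fold changes of -0.32 and -0.24 and lost their calls in 6 and 9 of the 17 alternatives, among them thinning and the fits without untreated replicate 5 or without tunicamycin replicate 1 or 5.

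Platelet and skeletal muscle markers, for the cells in which P2RX1 and MSS51 are best known, were at or near 0. Blood cell markers were too, apart from LYZ and CD68. Of 8 platelet and megakaryocyte markers 6 had 0 reads in all libraries, and their summed level was 0.861 to 11.4 normalised counts in untreated and 0 to 4.12 in tunicamycin libraries. TUBB1, the only platelet marker tested, was lower, with 39 reads in untreated and 5 in tunicamycin libraries (log2 fold change -2.54, edgeR adjusted p = 0.0119). Of 11 skeletal muscle markers 7 had 0 reads everywhere, including MYOD1, MYOG, DES, MYH1, MYH2, MYH7 and TNNT3, and the sum was 3.58 to 9.47 in untreated and 0 to 6.05 in tunicamycin libraries. Of 8 blood cell markers 4 had 0 reads in all libraries, namely PTPRC, CSF1R, CD3E and S100A8. CD14 had 7 reads in untreated and 3 in tunicamycin libraries, and CD79A had 4 and 2. The sum of the 8 markers was 1171 to 1641 normalised counts in untreated and 1240 to 2046 in tunicamycin libraries. Nearly all of it came from lysozyme, LYZ, with 1346 and 1694 normalised counts (edgeR adjusted p = 0.052). CD68 was also counted, with 27.8 and 15.6 (edgeR adjusted p = 0.0319). Whether these markers bear on the levels of P2RX1 was not tested.

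All 7 other genes of the GTPBP family were tested, and 0 passed in either direction by edgeR, with 0 by DESeq2 and 1, MTG2, at an unadjusted p under 0.05. Over all tested genes 34.2% passed by edgeR, and 7 genes are too few to compare with this share. GTPBP1, the closest paralog of GTPBP2, had 110 ± 24.1 and 135 ± 18.9 normalised counts (SD, n = 5; log2 fold change 0.27, edgeR adjusted p = 0.17). It passed only without untreated replicate 1, at an adjusted p of 0.0489. In the list of ribosome rescue and collision response, 22 genes were tested, 5 were higher, 4 were lower and 13 did not pass, with a median log2 fold change of 0.02. The shares higher and lower were 22.7% and 18.2%, beside 17.6% and 16.6% of all tested genes. The direct rescue factors PELO and HBS1L had log2 fold changes of 0.02 and -0.03, with edgeR adjusted p of 0.94 and 0.87. Those that rose included TRIP4 and ASCC2, 2 of the 4 listed subunits of a complex that takes collided ribosomes apart. TRIP4 went from 34.9 ± 12.7 to 83.4 ± 19.2 normalised counts (log2 fold change 1.25, edgeR adjusted p = 0.00030) and ASCC2 from 134 ± 49.1 to 249 ± 51.1 (0.89, edgeR adjusted p = 0.0037). The other subunits of that complex did not pass, ASCC3 at a log2 fold change of -0.13 (edgeR adjusted p = 0.41) and ASCC1 at 0.20 (edgeR adjusted p = 0.32). GNB2L1, the ribosomal protein RACK1, rose by a log2 fold change of 0.98 (edgeR adjusted p = 2.0e-06), and EDF1, a sensor of collided ribosomes, by 0.92 (edgeR adjusted p = 2.0e-07). In all 4 of them every tunicamycin library was above every untreated one, as in 11.7% of all tested genes. They were named from the genes called higher, so that this only restates their calls. ANKZF1, which releases peptides from stalled ribosomes, was lower by a log2 fold change of -0.52 (edgeR adjusted p = 0.0029). The others that passed were ABCE1, higher (0.33), a call lost with library size alone, and EIF4E2 (-0.35), EIF2AK4 (-0.30) and GCN1L1 (-0.26), lower, which lost their calls in 5, 8 and 2 of the 17 alternatives.

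The relatives of MSS51 showed small changes. Of 15 tested genes for MYND zinc finger proteins, 1 was higher and 1 lower, or 6.7% each, beside 17.6% and 16.6% of all tested genes. With the replicate block 1 was higher and 3 lower, SMYD5 and ANKMY2 being added. PDCD2, which assists assembly of the small ribosomal subunit, rose from 249 ± 18.0 to 367 ± 25.0 normalised counts (SD, n = 5; log2 fold change 0.55, edgeR adjusted p = 0.00010). SMYD3, a lysine methyltransferase, fell from 72.0 ± 7.97 to 44.1 ± 11 (log2 fold change -0.69, edgeR adjusted p = 0.0040). ZMYND19 had 119 ± 8.67 and 96.7 ± 23.5 normalised counts (log2 fold change -0.29, edgeR adjusted p = 0.15) and passed only without tunicamycin replicate 3, at an adjusted p of 0.0392. All 23 genes for complex IV translation and assembly were tested, and 5 were higher, 4 lower and 14 did not pass, with a median log2 fold change of 0.10. The shares higher and lower, 21.7% and 17.4%, were near the 17.6% and 16.6% of all tested genes. Among those higher, COA6, which carries copper to the enzyme, had 146 ± 36.5 and 220 ± 27.4 normalised counts (log2 fold change 0.58, edgeR adjusted p = 0.0070), and the membrane insertase COX18 had a log2 fold change of 0.57 (edgeR adjusted p = 0.0094). Among those lower were COX16, from 584 ± 68.8 to 381 ± 26.9 (log2 fold change -0.61, edgeR adjusted p = 6.2e-05), and COA3, a regulator of the translation of its first subunit, from 239 ± 24.7 to 159.9 ± 20.6 (log2 fold change -0.58, edgeR adjusted p = 0.00066). PET100 was lower as well (log2 fold change -0.63, edgeR adjusted p = 0.0224), a call lost after thinning and without untreated replicate 5 or tunicamycin replicate 1 or 2, with adjusted p up to 0.235. LRPPRC (0.38), which stabilises mitochondrial mRNAs, was higher in all 17 alternatives, whereas COA1 (0.55) and COA4 (0.29), higher, and COX14 (-0.27), lower, lost their calls in 7, 6 and 10 of them.

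**Figure D4:**
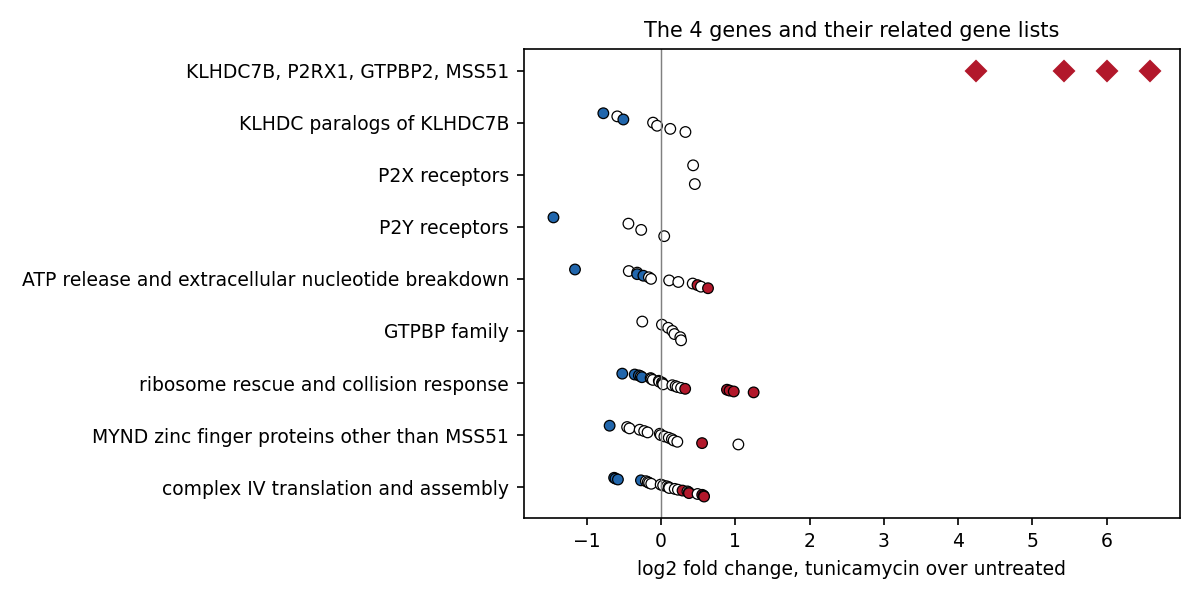
Log2 fold changes of tunicamycin over untreated are on the horizontal axis, with the 4 genes as diamonds in the top line and each tested gene of the 8 related lists as a circle below; red circles were higher, blue circles lower and white circles did not pass the edgeR test. The diamonds lie between 4.23 and 6.58, whereas all circles lie between -1.45 and 1.25.

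The 3 nearest counted genes on each side were read for each of the 4, to see whether their surroundings changed with them. Of these 24 neighbours 11 were tested, of which 3 were higher and 0 lower by edgeR, with 4 and 0 at an unadjusted p under 0.05 and 3 and 0 by DESeq2. Over all tested genes 17.6% were higher and 16.6% lower by edgeR, and 11 genes are too few to compare with these shares. Their median log2 fold change was 0.04. None of the 6 neighbours of KLHDC7B passed the filter on low counts. SYCE3, 89 bases away on the opposite strand, had 0 reads in all 10 libraries, and the divergent transcript KLHDC7B-DT (CTA-384D8.35 in the count table) had 1 read in untreated and 7 in tunicamycin libraries. ODF3B, 13393 bases away, had 2 and 17 reads, or 0.357 ± 0.798 and 3.69 ± 1.68 normalised counts (SD, n = 5), without overlap. It entered 10 of the 17 alternative fits, the fit without a filter and 9 that left out a library. It was higher in all 10, with log2 fold changes of 2.74 to 4.95 and edgeR adjusted p of 0.0049 to 0.030. In the 9 fits it passed the filter only through its tunicamycin counts, and the 10 fits share most of their libraries. They therefore repeat the same few reads and add no support. CPT1B, 17838 bases away, had 11 reads in untreated and 1 in tunicamycin libraries.

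Next to P2RX1, the kinase gene CAMKK1 lies 1701 bases away on the same strand. It had 8 reads in untreated and 21 in tunicamycin libraries (log2 fold change 1.69, edgeR adjusted p = 0.157), far fewer than the 400 of P2RX1, and passed only without untreated replicate 5, at an adjusted p of 0.0267. The other 3 tested neighbours of P2RX1 did not pass, with log2 fold changes of 0.04 for C17orf85, 0.02 for ITGAE and -0.31 for ZZEF1. The sign of the first 2 changed with the scaling, being negative with library size alone.

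GTPBP2 shares its upstream region with MAD2L1BP, a gene for a mitotic checkpoint regulator that starts 276 bases away on the opposite strand. MAD2L1BP was higher, from 26.5 ± 11.3 to 70.8 ± 18.0 normalised counts (SD, n = 5), with a log2 fold change of 1.4 and an edgeR adjusted p of 0.00041, and the conditions did not overlap. XPO5, the exporter of microRNA precursors, 44456 bases away, was also higher (log2 fold change 0.65, edgeR adjusted p = 0.00038). At the other end the exons of GTPBP2 and of POLH overlap by 30 bases on opposite strands. The strand setting is not named beyond the default settings of the pipeline, and reads in this overlap were not assigned to either gene here. POLH went the other way, with 105 reads in untreated and 55 in tunicamycin libraries (log2 fold change -0.64, edgeR adjusted p = 0.166). MRPS18A, further upstream, did not pass either (log2 fold change -0.32, edgeR adjusted p = 0.13). No exon of another gene overlapped those of KLHDC7B, P2RX1 or MSS51.

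Beside MSS51, the annexin gene ANXA7 lies 9503 bases away on the same strand. It was higher in all 5 replicates, from 86.5 ± 12.3 to 201 ± 35.9 normalised counts (SD, n = 5), with a log2 fold change of 1.21 and an edgeR adjusted p of 2.0e-06. PPP3CB, a calcineurin subunit gene 2872 bases away, had 182 ± 7.57 and 221 ± 37.2 normalised counts (log2 fold change 0.28, edgeR adjusted p = 0.068) and passed after thinning and without tunicamycin replicate 4, at adjusted p down to 0.0309. USP54 had a log2 fold change of -0.28 and did not pass (edgeR adjusted p = 0.31). Among the 11 tested neighbours the highest log2 fold change was the 1.69 of CAMKK1, or 3.19 without untreated replicate 5. Since the 4 genes were chosen for their large folds, lower folds of neighbours are not a result about the neighbours. ODF3B, not tested with all libraries in, had 2.74 to 4.95 in the 10 fits it entered, where GTPBP2 had 4.23 with all libraries. The ODF3B values rest on 2 reads in untreated and 17 in tunicamycin libraries.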

How the data were processed

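RNA from HepG2 cells, 5 untreated and 5 tunicamycin-treated samples, was sequenced from 3′ ends. The authors deposited raw counts per gene, mapped to hg19 per the labels. The methods of the study cite the nf-core RNA-Seq pipeline run at its defaults with Ensembl transcripts, and the aligner, counting program and strand setting are not named separately. All 10 count columns were matched to samples by name.

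KLHDC7B, P2RX1, GTPBP2 and MSS51, and all gene lists, were chosen with earlier results of these data known. Genes were filtered with filterByExpr (minimum count 2, minimum total 10), as in the methods of the study, scaled by TMM and tested with edgeR 4.0.16 (R 4.3.3) by glmQLFTest with condition as the only term. P-values were adjusted by Benjamini-Hochberg over 12733 genes at 0.05, and all adjusted p-values in the text are from this fit. The standard error is the log2 fold change over the square root of F. Normalised counts are counts over the TMM-scaled library size times its mean. Log2 levels used a pseudocount of 0.5.

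Besides the 4 genes, the text names up to 3 genes per related list by size of change, closest paralogs, neighbours, the 3 genes most alike in course, the 10 highest ranks and 5 stress genes. The other genes named in the lists (such as ASCC2, ANKZF1, PELO, HBS1L, COA6, COX18 and the marker genes) and those low in tunicamycin replicate 1 were named after their values were seen.

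Replicate numbers were taken to pair libraries, because the series text assigns the replicate experiments to separate days. The correlations of the paired libraries' deviations from the condition means, over 9707 genes, were 0.36, 0.0197, 0.0764, 0.162 and 0.137. Nothing else says that the libraries were independent cultures, and p-values measure the spread between them. Alternatives were DESeq2 1.42.0, its size factors, library size alone, no filter, default filter minimums, a replicate block, thinning to the smallest library and leaving out each library. The fit was tested on simulated data of 12554 genes, where it called 98 of 100 genes with a log2 fold of 1 and 100 of 100 with 4. It also called 14 unchanged genes. The simulation gave all genes the same spread beyond counting error and changed only well counted genes. It therefore does not cover genes with few reads or as variable as GTPBP2 and MSS51. Depth, 2234682 to 5029864 counts, leaves genes below about 3 counts per library uncertain. Positions were taken from GENCODE on GRCh38, never converted from hg19. The other experiments of the study were not analysed here.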

Additional observations from a re-analysis of the deposited data

Results flagged for a closer look

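Within 128 groups of 5 libraries, 13 had a single library that stood apart from the other 4, by Dixon's ratio of gap to range above 0.71. For normally distributed values chance would give about 1 in 20, or 6.4. Counts near 0 are not so distributed, and a single nonzero value beside 0 in the other 4 is always flagged. The 13 can therefore not be compared with 6.4. None of the 13 was a level of KLHDC7B, P2RX1, GTPBP2 or MSS51. The values are normalised counts. Among genes with more than a few reads, GTPBP1 had 167 in tunicamycin replicate 5 against 122 to 134 in the others. COX14 had 443 in untreated replicate 1 against 365 to 369, and 253 in tunicamycin replicate 4 against 320.2 to 347. COA1 had 184 in tunicamycin replicate 1 against 224 to 238. IGFBP1 had 178 in untreated replicate 3 against 121 to 133, and 1830 in tunicamycin replicate 4 against 2363 to 2566. ASNS had 645 in untreated replicate 5 against 460.1 to 492. The others were neighbours with very few reads. CAMKK1 had 6.10 in untreated replicate 5 against 0 to 1.75, and RP11-464F9.20 had 8.75 in untreated replicate 3 against 0.861 to 2.68. The remaining libraries stood against 0 in the other 4, with 0.896 for CTA-384D8.35 in untreated replicate 4, 1.78 for ODF3B in untreated replicate 2, 0.992 for CPT1B in tunicamycin replicate 2 and 0.875 for RP3-337H4.8 in untreated replicate 3. These libraries numbered 9 of the 10.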

How the results depend on the processing

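The log2 fold changes of the 4 genes kept their direction in all alternatives that gave a value, between 6.31 and 6.76 for KLHDC7B, 5.15 and 5.97 for P2RX1, 3.97 and 4.75 for GTPBP2 and 5.36 and 6.34 for MSS51. MSS51 was removed by the default filter minimums and has no value there. Pairing replicates by a block changed the related genes lower from 15 to 17, and moved no list's count over 1.5 times apart from MYND proteins lower (1 to 3) and 1 gene gained from 0 in integrated stress response genes lower (SLC7A5), hepatocyte markers higher (HNF4A) and blood cell markers higher (LYZ). Over all genes, the count higher was 2237 (1774 to 2499) and the count lower 2116 (1795 to 2570). Related genes higher numbered 13, and 10 to 14 when a library was left out; with library size alone 9 were higher and 19 lower. Related genes lower numbered 15, and 9 after thinning and 9 to 12 when a library was left out, the 9 without tunicamycin replicate 5; fewer reads or samples entered these fits. Neighbours higher numbered 3, and 3 to 5 when a library was left out, the 5 without untreated replicate 5 or tunicamycin replicate 4, and ODF3B, which the filter removed with all libraries in, was called in 9 of these. Library size alone moved the median of all genes by -0.08. Near 0, C17orf85 turned from 0.04 to -0.038 with library size alone and -0.029 after thinning, with -0.083 (without tunicamycin replicate 2) to 0.13 when a library was left out, and ITGAE from 0.02 to -0.058 and -0.073, with -0.085 (without tunicamycin replicate 5) to 0.15; the cause was not tested. Of 42 named calls 29 held everywhere.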

Other observations

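After the values were seen, 7 genes were found at least 4-fold below the other treated libraries in tunicamycin replicate 1. They included GTPBP2 and MSS51, whose induction is the reason they were chosen. Of the others, CCL20 and PPP4C are described above. TMEM216, a protein of the ciliary transition zone, had 3.38 normalised counts in that library against 36.7 to 97.5 in the other treated ones, and 1.72 to 8.13 in untreated cells. SGCE, a sarcoglycan, had 10.1 against 43.5 to 68.7, with 7.75 to 20.6 in untreated cells. NPIPA1, a gene with near-identical copies whose counts are therefore uncertain, had 9.29 against 38.7 to 104.9.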
